A study of Mus musculus with 4 samples.

Results

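The genes described here are 9 monocyte chemokines and chemokine receptors, chosen by their symbols: the ligands Ccl2, Ccl7, Ccl12, Ccl8, Ccl3 and Ccl4 and the receptors Ccr2, Ccr1 and Cx3cr1. Each symbol had 1 row among the 32285 genes of the deposited matrices, so all 9 were found. All 9 also had at least 100 UMIs (unique molecular identifiers, each standing for 1 captured RNA molecule) over the kept cells of both libraries and passed the filter on low counts. Together they held 0.731% of the UMIs of the WT library and 0.591% of those of the VISTA KO library.

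CCR2 is the receptor that lets classical, Ly6C-high monocytes leave the bone marrow and enter inflamed tissue and tumors, and its mouse ligands include CCL2, CCL7 and CCL12. CCL8 belongs to the same gene family but in the mouse is known mainly as a ligand of CCR8. CCL3 and CCL4 are inflammatory chemokines, CCR1 binds CCL3 and CCL7, and CX3CR1, the receptor of the membrane-bound chemokine CX3CL1, is known from patrolling monocytes and resident macrophages. In tumors these ligands come from tumor, stromal and myeloid cells, and the cells that arrive can themselves turn into chemokine-making macrophages.

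The study asked what loss of VISTA, an inhibitory receptor encoded by Vsir, changes in suppressive myeloid cells of MC38 tumors, a transplanted mouse colon carcinoma. Both groups came from bone marrow chimeras on the C57/BL6 strain, with WT or VISTA KO donor marrow, reconstituted for 6 weeks and killed with tumors of 9 to 10 mm, which were pooled. CD45.1 and CD45.2 marked the origin of the cells, which were sorted as CD11b+ and stained with oligonucleotide-tagged antibodies to CD11c, Ly6C and Ly6G. The sources used here do not say whether donor marrows were mixed within a mouse, how many tumors were pooled or which part of Vsir was deleted, and the hosts keep their own non-hematopoietic cells.

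Each group was 1 library, so the comparison of VISTA KO with WT has no replicate check, no test was run, and every 95% interval covers counting error only. The WT library held 61753547 gene UMIs in 10241 barcodes and the VISTA KO library 80366761 in 15257. The filter kept 10193 and 15140 of these barcodes as cells, with medians of 4692 and 4212.5 UMIs, and 46 barcode sequences occurred in both. The sample records give 10000 cells loaded, fewer than the kept barcodes of either library. Why more barcodes were kept than cells loaded was not tested, and all group shares rest on these barcodes. Vsir RNA, which marks the groups, stood at 136.5 UMIs per 1000000 UMIs of the library (CPM) in WT and 46.2 in VISTA KO. Its VISTA KO level was above 0, and 3′ RNA outside a deleted part would say nothing of the genotype. The remaining Vsir RNA was uneven among the cell groups described below. From WT to VISTA KO, its CPM dropped from 150 to 74.6 for macrophage-like cells and from 137 to 42.2 for monocyte-like cells. For cDC2-like dendritic cells the drop was from 50.1 to 9.54. Why the drop differed by group was not tested, nor was the part of host-derived cells in any group.

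Cells were clustered without the 9 genes, so their levels played no part in making the groups. Monocyte-like cells (3465 WT, 3071 VISTA KO) were 3 clusters: cluster 0, led by Vcan, Chil3 and Ifitm6, cluster 6, in which only 3 of 12 monocyte markers stood out and Ifit genes led, and cluster 7, led by Ceacam1 and Pi16. Macrophage-like cells (1301 and 2274) were cluster 4, with Mmp12, Pf4 and Spp1, and cluster 8, with Fcrls, Folr2 and C1qa. A group of 1857 WT and 773 VISTA KO droplets carried neutrophil and macrophage markers together at medians of 9821 and 10567 UMIs, and whether these droplets held more than 1 cell was not tested. Clusters 1 and 2, at 414 and 378 WT against 2465 and 2438 VISTA KO cells, met the markers of no single type and stay unnamed. The CD11b+ sort still held NK cell-like and T cell-like cells, for which these receptors and ligands give a comparison.

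Ccl2, Ccl7 and Ccl12, the CCR2 ligands, were highest in macrophage-like cells in both libraries. Ccl2 stood at 4612 CPM (4566 to 4658) in WT and 3369 (3339 to 3400.2) in VISTA KO macrophage-like cells, and at 2751 (2726 to 2777) and 2260.3 (2234 to 2287) in monocyte-like cells. Macrophage-like values were thus the highest of the 10 groups ranked in either library, and the intervals of the next groups in the order did not reach them. In WT, the interval of the unnamed cluster 5 overlapped those of monocyte-like cells and of the unnamed cluster 2, but the latter intervals did not overlap each other. The lowest Ccl2 level of the ranked groups was in dendritic cells of the cDC2-like type, at 207 and 405 CPM.

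Ccl7 was likewise highest in macrophage-like cells, with 2609.9 CPM (2575 to 2645) in WT and 2089.7 (2066 to 2114) in VISTA KO. Ccl12, a CCR2 ligand of the mouse, stood at 1981 (1951 to 2012) and 1682 (1660.0 to 1703) there. For both genes monocyte-like cells lay well below macrophage-like cells, with Ccl7 at 698 and 686 CPM and Ccl12 at 614 and 768. In the mixed neutrophil and macrophage droplets, Ccl7 was at 1411 and 1028 CPM and Ccl12 at 1274 and 897. Unlike for Ccl2, the unnamed cluster 11 came next after macrophage-like cells for Ccl7 in both libraries, at 1513 and 1195 CPM.

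The make-up of the family differed between clusters. Of the summed UMIs of Ccl2, Ccl7, Ccl12 and Ccl8, Ccl2 made up 67.4% in WT monocyte-like cells and 49.4% in WT macrophage-like cells. In cluster 8 of the macrophage-like cells its share was 35.7% in WT and 31.6% in VISTA KO, and Ccl12 nearly equalled it at 32.0% and 29.8%. In cluster 0 of the monocyte-like cells the share of Ccl2 was 72.7% in WT and 72.9% in VISTA KO. The whole libraries had 54.5% and 50.6%.

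Shares of cells with a UMI depend on depth and on free RNA in the droplets, so cells were also thinned to 1000 UMIs each. At that depth 59.1% of WT and 57.2% of VISTA KO monocyte-like cells held a Ccl2 UMI, and 75.0% and 70.9% of macrophage-like cells did. The same share was 12.9% in WT T cell-like cells, 20.7% and 29.0% in neutrophil-like cells and 10.9% and 18.9% in cDC2-like cells. Before thinning, neutrophil-like cells were 386 in WT but only 76 in VISTA KO, under the minimum of 100 for a call. Unthinned, Ccl2 was found in 80.2% and 81.2% of monocyte-like cells, at median depths of 4397 and 3884 UMIs.

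NK cell-like cells, not known as a source of these ligands, had 21.0% and 32.1% with Ccl2. At a finer clustering (resolution 2), 132 WT and 199 VISTA KO droplets with NK cell and macrophage markers together formed a cluster apart, at medians of 7494.5 and 7763 UMIs, and held Ccl2 at 1914 and 1384 CPM. The 502 WT and 394 VISTA KO cells that were NK cell-like in that clustering, at medians of 2205 and 2327 UMIs, had Ccl2 at 98.5 and 251 CPM and in 10.2% and 26.7% of thinned cells. These NK cells apart from the mixed droplets, a comparison chosen after seeing the data, are given as the background for Ccl2, Ccl7, Ccl12 and Ccl8. Their shares of all 4 ligands were larger in VISTA KO, with binomial intervals that did not overlap, so the background itself differed between the libraries.

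**Figure D1:**
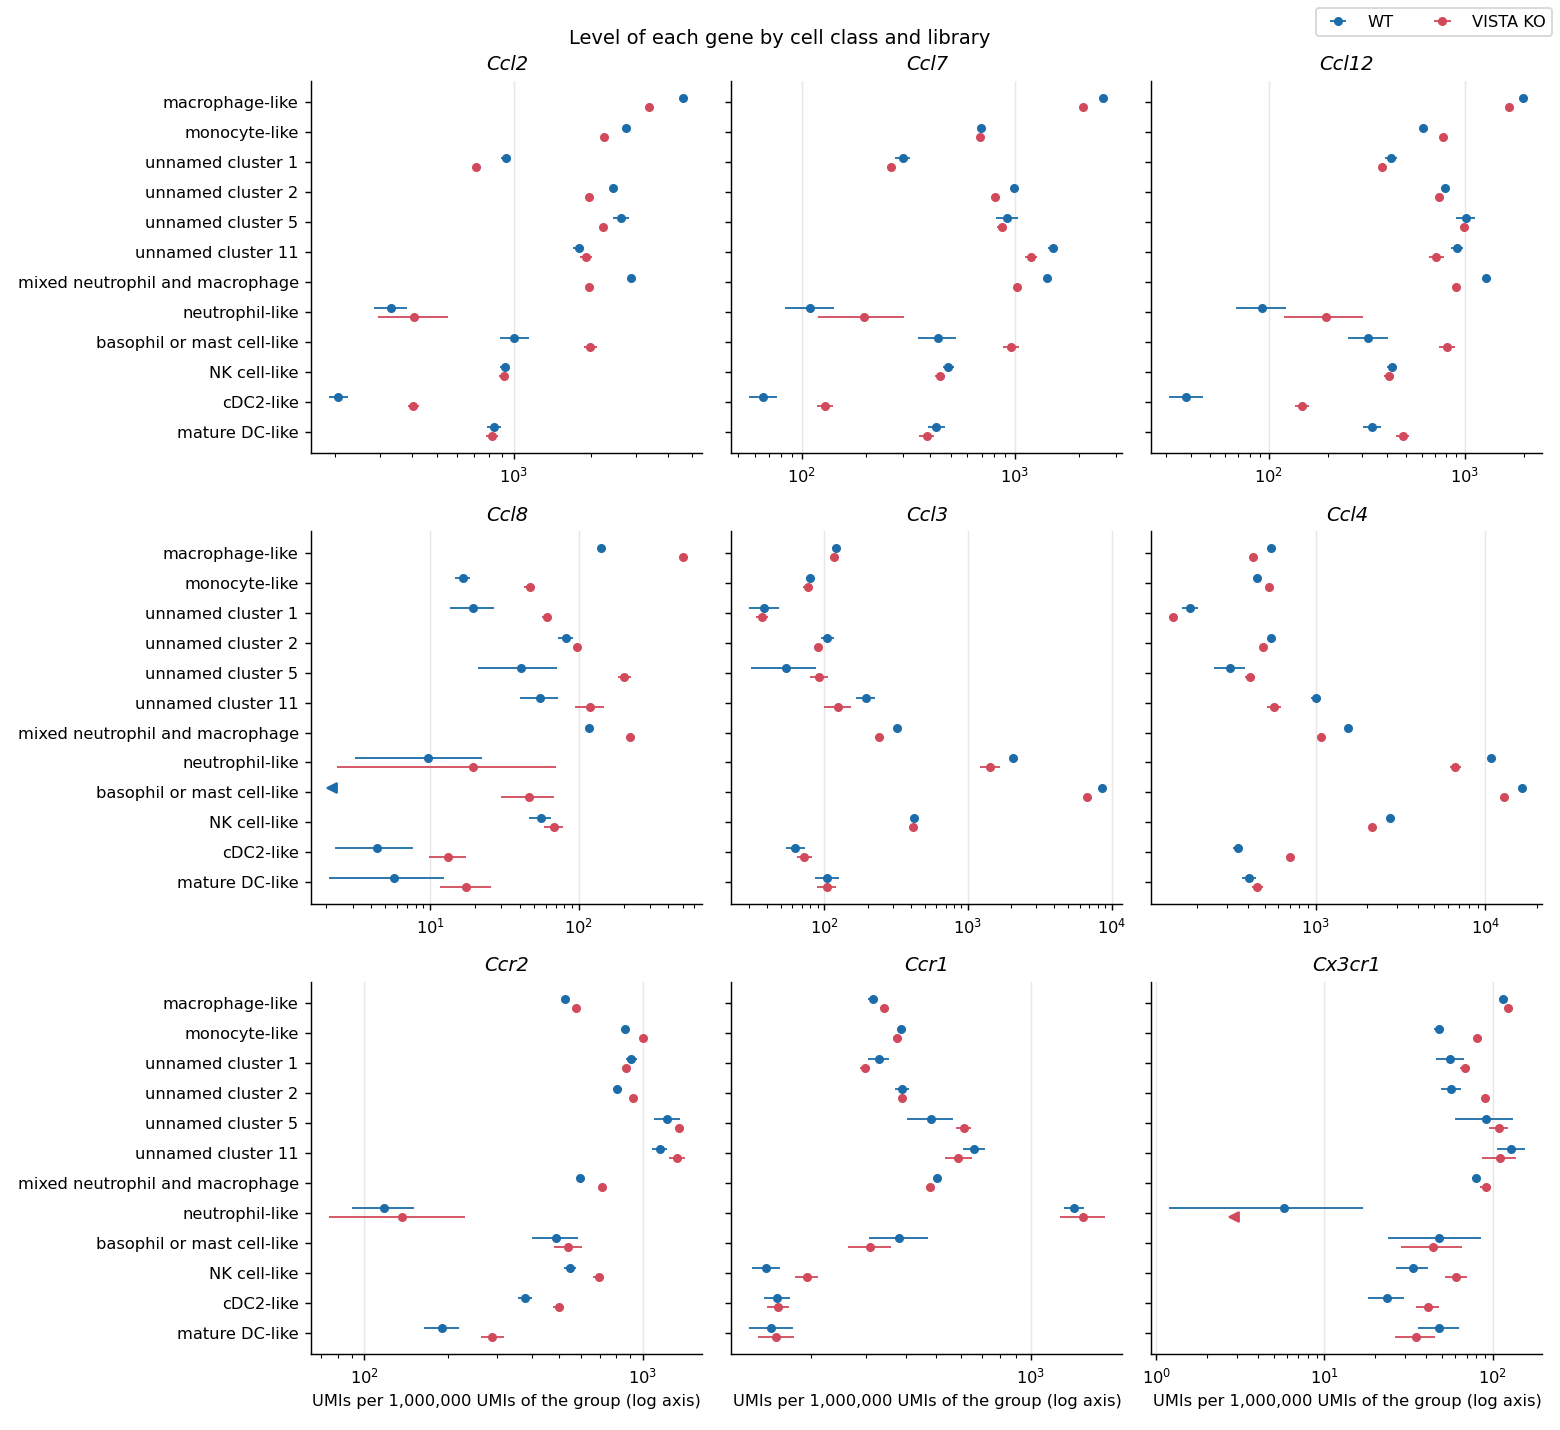
Level of each of the 9 genes (UMIs per 1000000 UMIs of the group, log axis) in 12 cell groups of the WT (blue) and VISTA KO (red) library. Points are 1 library each, bars are exact Poisson 95% intervals and triangles mark 0 UMIs. Ccl2, Ccl7, Ccl12 and Ccl8 peaked in macrophage-like cells, Ccl3 and Ccl4 in basophil or mast cell-like cells, and Ccr1 in neutrophil-like cells.

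Over all kept cells Ccl2 stood at 2657 CPM (2644 to 2670.1) in WT and 1940.4 (1931 to 1950.1) in VISTA KO, a log2 ratio of -0.45. The values of Ccl7 were 1166 and 904 CPM (-0.37) and those of Ccl12 980.3 and 825 (-0.25). None of these reached the size of 1.5-fold used to call a difference. With the mixed and unnamed clusters left out, the ratio was -0.24 for Ccl2 but turned to 0.06 for Ccl7 and 0.21 for Ccl12. Of the 9 genes, 1 was called higher (Ccl8) and 1 lower (Ccl4) over all kept cells, where 4.43% and 4.19% of 11499 genes with at least 100 UMIs were called higher and lower. The median log2 ratio of the 9 genes was -0.25, against 0.08 over those 11499 genes.

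Within classes the Ccl2 value of VISTA KO lay below that of WT in every one of the 5 monocyte-like and macrophage-like clusters. The log2 ratios were -0.38, -0.27 and -0.46 in the monocyte-like clusters 0, 6 and 7 and -0.38 and -0.51 in the macrophage-like clusters 4 and 8, and none of their intervals held 0. Ratios in the unnamed clusters 1 and 2 and in the mixed neutrophil and macrophage droplets were -0.39, -0.30 and -0.55. All of these were under the 1.5-fold size.

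Ccl7 and Ccl12 had negative ratios in the same 5 clusters, from -0.16 to -0.52 for Ccl7 and from -0.14 to -0.49 for Ccl12. The interval of Ccl7 in cluster 7 (-0.34 to 0.01) was the only one of these 10 to hold 0. The pooled monocyte-like value of Ccl12 nevertheless stood at a log2 ratio of 0.32 (0.28 to 0.36), with the opposite sign of all 3 of its clusters. Cluster 6, where Ccl12 was at 1852 and 1676 CPM, held 547 of the WT and 1086 of the VISTA KO monocyte-like cells, while cluster 0, at 461 and 328 CPM, held 2174 and 1278. With the 3 clusters weighted equally the ratio was -0.28, while the other 11 of 12 alternatives were positive, up to 0.94 with each library clustered alone. Macrophage marker RNA in monocyte-like cells also differed, at a sum of 3191 CPM in WT and 6782 in VISTA KO over 14 markers, none of them at 0, and its part in these ratios was not tested.

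The size of the macrophage-like differences rested on where the class was drawn. When the 9 genes could enter the clustering, the ratios of Ccl2, Ccl7 and Ccl12 in macrophage-like cells were -0.84, -0.97 and -0.75, all past 1.5-fold, against -0.45, -0.32 and -0.24 here. With each library clustered alone they were -0.70, -0.70 and -0.69. With the 9 genes in, the class also held a cluster of 279 WT and 2581 VISTA KO cells, led by Ly6i, H2-Eb1 and Cxcl9. With each library alone, it also held a VISTA KO cluster of 2076 cells, led by H2-Eb1, H2-Ab1 and H2-Aa. The part of these clusters in the larger ratios was not tested. The sign was the same in all 12 alternatives tried.

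Because the libraries differed in their mix of groups, the difference in UMIs per cell was split into a part from group shares and a part from levels within groups. For Ccl2 the difference, VISTA KO minus WT, was -5.80 UMIs per cell, of which -1.68 came with group shares and -4.12 with levels within groups. For Ccl7 the difference of -2.27 split into -0.808 and -1.46, and for Ccl12 that of -1.56 into -0.708 and -0.851. For each of these 3 ligands the levels within groups thus made up the larger part. In CPM, which leaves out depth per cell, the parts were -121 and -595 for Ccl2, -51.4 and -211 for Ccl7 and -47.45 and -108 for Ccl12. The split used whole classes, so its level part also holds shifts among the clusters of a class. For Ccl12 in monocyte-like cells that part was 0.0701 UMIs per cell, although the ratios of all 3 clusters were negative.

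The source groups changed place between the libraries. In WT, 36.6% of all Ccl2 UMIs lay in the mixed neutrophil and macrophage droplets, 27.3% in monocyte-like and 23.5% in macrophage-like cells, and 5.21% in the unnamed cluster 2. In VISTA KO these shares were 11.5%, 18.2%, 29.8% and 26.4%. Cluster 2, led by Egr2, Klf4 and Ifi202b, made up 3.71% of WT and 16.1% of VISTA KO cells.

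**Figure D2:**
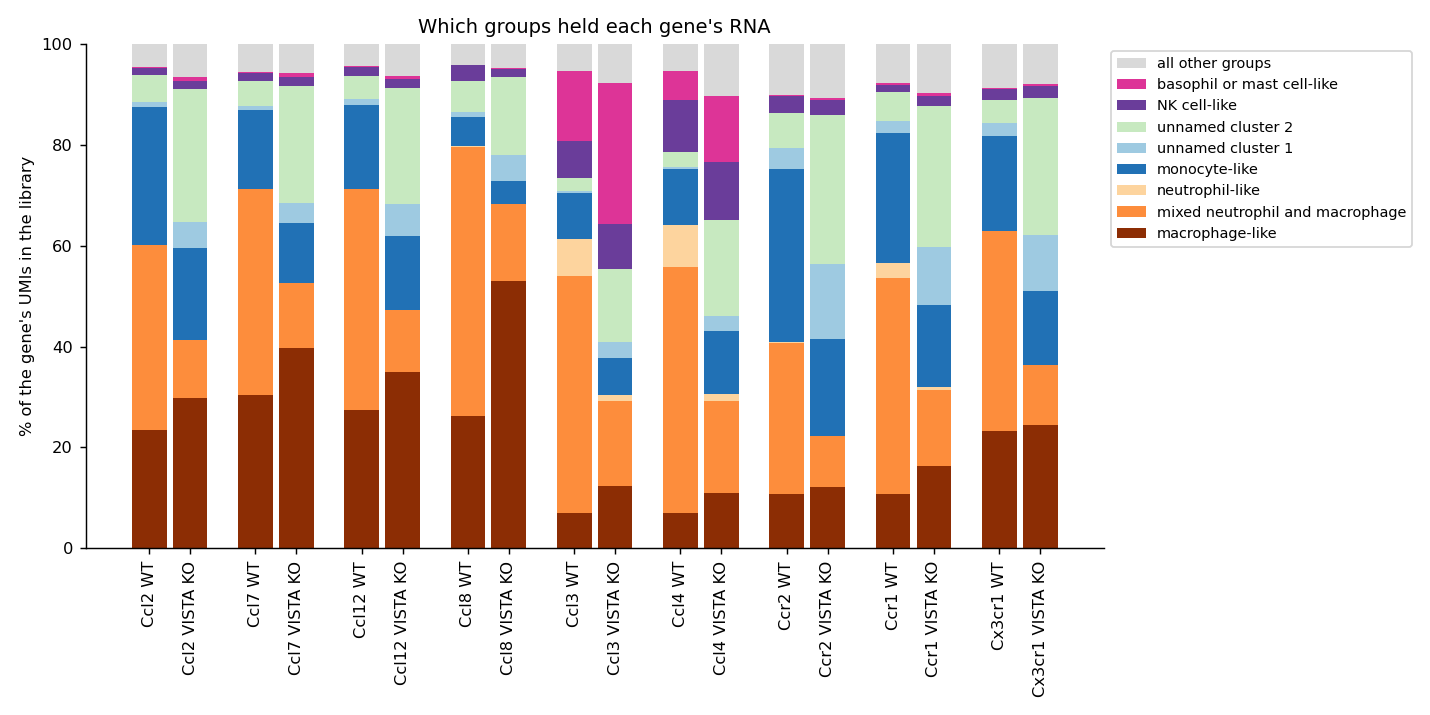
Share of each gene's UMIs in a library (%) that each cell group held, in WT and VISTA KO. Bars are stacked to 100% and come from 1 library each. The mixed neutrophil and macrophage droplets (orange) held the largest share of Ccl2 in WT (36.6%), and macrophage-like cells (brown) the largest in VISTA KO (29.8%).

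Ccl8 had a ratio of the other sign from its neighbours. The genes of Ccl2, Ccl7, Ccl12 and Ccl8 lie in a row on chromosome 11 from 82035577 to 82116799 (RefSeq, GRCm38.p6, the assembly behind mm10), and 11785 bases separate the end of Ccl12 from the start of Ccl8. Only Ccl8 was called higher in VISTA KO over all kept cells, at 73.6 CPM (71.5 to 75.8) in WT and 163 (160.5 to 166) in VISTA KO, a log2 ratio of 1.15 (1.10 to 1.20). The 250 bases before the start of Ccl12 and of Ccl8 are given here because these neighbours had ratios of opposite sign in macrophage-like cells. They lie at chr11:82101595-82101844 and chr11:82114935-82115184, both on the plus strand, and the capitals mark runs of 8 bases that both share at matching places in their alignment:
Ccl12: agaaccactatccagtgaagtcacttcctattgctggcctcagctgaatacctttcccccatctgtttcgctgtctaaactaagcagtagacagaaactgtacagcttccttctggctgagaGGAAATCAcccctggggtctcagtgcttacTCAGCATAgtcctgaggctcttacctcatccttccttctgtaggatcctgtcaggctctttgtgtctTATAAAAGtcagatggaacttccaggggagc
Ccl8: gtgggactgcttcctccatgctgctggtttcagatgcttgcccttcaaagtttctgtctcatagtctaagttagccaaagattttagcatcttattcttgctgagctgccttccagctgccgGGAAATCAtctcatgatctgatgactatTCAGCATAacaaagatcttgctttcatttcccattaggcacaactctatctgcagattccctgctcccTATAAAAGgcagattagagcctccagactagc

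The aligned stretches were identical at 145 of 266 columns (54.5%). The first run, GGAAATCA, begins 128 bases before the start of both genes. TCAGCATA begins 98 bases before Ccl12 and 100 before Ccl8, and TATAAAAG 31 and 32 bases before. Searched on both strands of all 32851 promoter windows of the RefSeq table, these runs occur in 323 (0.983%), 158 (0.481%) and 496 (1.51%) windows. A shared run is a description of the letters and no evidence of a bound factor.

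Ccl8 was highest in macrophage-like cells in both libraries. The class held it at 142 CPM (134 to 150.2) in WT and 503 (491 to 515) in VISTA KO, a log2 ratio of 1.83 (1.74 to 1.92). In cluster 4 it was at 65.9 and 256 CPM (1.96), and in cluster 8 at 298 and 899 CPM (1.59). Both clusters passed the 1.5-fold size in the same direction. Ccl8 was among the 10 leading genes of cluster 8 although it was not used to form it. It was the only one of the 9 genes called higher in macrophage-like cells, with 0 called lower, where 3.37% and 1.29% of 8635 genes were called higher and lower. Under the 12 alternatives the ratio ran from 0.87, with the 9 genes in the clustering, to 2.27, without the 1% of cells richest in Ccl8, all past 1.5-fold.

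The Ccl8 UMIs sat in few cells. The 1% of cells richest in Ccl8 held 79.2% of the WT and 73.6% of the VISTA KO UMIs, above the same share of any other of the 9 genes. Ccl3 came next with 29.0% and 42.4%, and Ccr2 had the smallest, 5.83% and 5.82%. Cells with at least 10 Ccl8 UMIs were 86 of 10193 (0.844%, 0.675 to 1.04, exact binomial) in WT and 214 of 15140 (1.41%, 1.23 to 1.61) in VISTA KO, and they held 76.1% and 79.6% of all its UMIs. The highest cells carried 316 and 497 UMIs. With so few cells behind it, the Poisson interval of the Ccl8 level understates how far a repeat could move.

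Among macrophage-like cells, 25 of 1301 (1.92%, 1.247 to 2.82) in WT and 112 of 2274 (4.93%, 4.07 to 5.90) in VISTA KO held at least 10 Ccl8 UMIs. Cluster 8 had the largest such share in both libraries, with 21 of 386 cells (5.44%) and 74 of 842 (8.79%). In cluster 4 the count was 4 of 915 (0.437%) and 38 of 1432 (2.65%). The share of Ccl8-rich cells was thus above WT in both macrophage-like clusters of VISTA KO, and the binomial intervals did not overlap in cluster 4 but did in cluster 8.

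Monocyte-like cells held little Ccl8. With cells thinned to 1000 UMIs, 0.702% of WT and 3.21% of VISTA KO monocyte-like cells held a Ccl8 UMI, against 0.410% (0.0497 to 1.47) and 3.08% (1.60 to 5.33) of NK cells apart from the mixed droplets. Macrophage-like cells had 4.23% and 9.75%. The monocyte-like level was 16.5 and 46.8 CPM and that of the NK cells 2.92 and 26.4 CPM, from 4 and 31 UMIs. By share of cells, monocyte-like Ccl8 was thus within the interval of the background in both libraries, while its CPM was above it. Of the WT Ccl8 UMIs, 53.5% lay in the mixed neutrophil and macrophage droplets and 26.1% in macrophage-like cells. In VISTA KO these shares were 15.3% and 52.9%. The difference of 0.420 more Ccl8 UMIs per VISTA KO cell came with -0.112 from group shares and 0.532 from levels within groups, and 0.297 of the latter lay in macrophage-like cells.

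**Figure D3:**
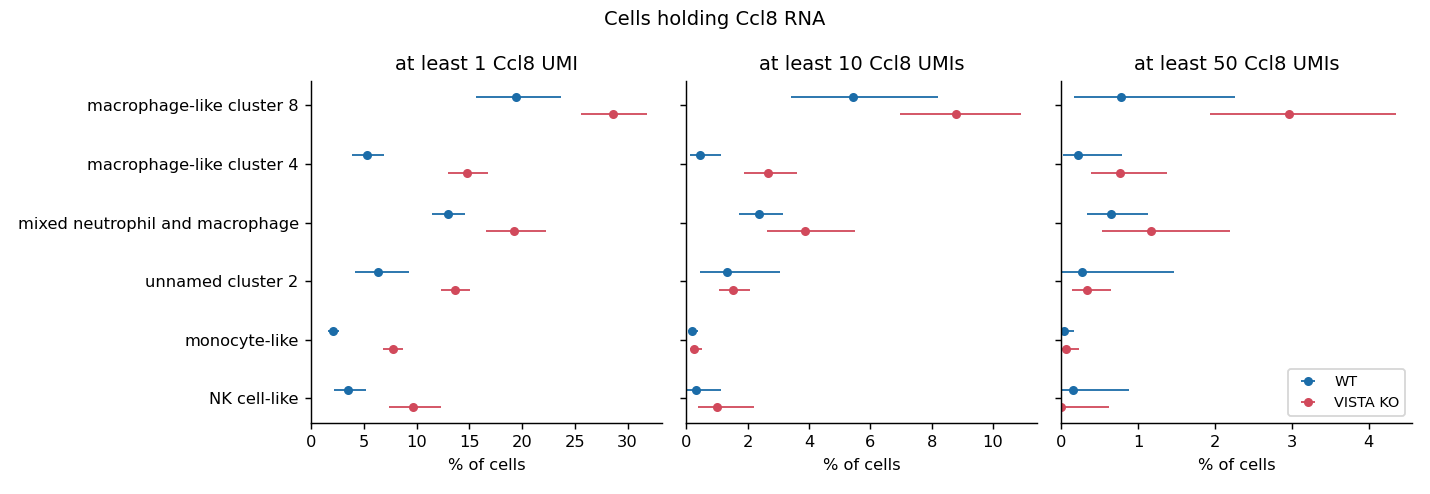
Share of cells (%) with at least 1, 10 or 50 Ccl8 UMIs in 6 groups of the WT (blue) and VISTA KO (red) library, unthinned, with exact binomial 95% intervals. At 10 or more UMIs, cluster 8 of the macrophage-like cells had 5.44% in WT and 8.79% in VISTA KO, and monocyte-like cells 0.173% and 0.260%.

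Ccl3 and Ccl4, inflammatory chemokines, peaked in other cells than the CCR2 ligands. Both were highest in basophil or mast cell-like cells, a group of 47 WT and 90 VISTA KO cells. There Ccl3 stood at 8561 CPM (8187 to 8947) and 6700.1 (6484 to 6922), and Ccl4 at 16492 (15972 to 17025) and 12913 (12611 to 13220). Neutrophil-like cells, 386 in WT but only 76 in VISTA KO, held much of both as well. Their Ccl3 was at 2055 and 1433 CPM and their Ccl4 at 10849 and 6639.8. NK cell-like cells, known producers of both, had Ccl3 at 423 and 412 CPM and Ccl4 at 2747 and 2154. NK cells apart from the mixed droplets had Ccl3 at 515 and 606 CPM and Ccl4 at 3584 and 3477, so the library difference depended on these droplets. Monocyte-like and macrophage-like cells had less of both, with Ccl3 between 76.4 and 121 CPM and Ccl4 between 423 and 547 CPM. The genes lie on opposite strands of chromosome 11 (Ccl3 from 83647843 to 83649378, Ccl4 from 83648624 to 83664683), and their annotated spans overlap by 755 bases. The sources used here do not say whether counting used the strand, so reads in that overlap may have been counted for either gene.

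The only call of a lower level over all kept cells was Ccl4, with 1074 CPM (1065 to 1082) in WT and 665 (659 to 670.4) in VISTA KO, a log2 ratio of -0.69. Ccl3 stood at 232 and 162 CPM (-0.52), under the size of the call. Unlike the CCR2 ligands, both differences lay mostly in group shares. The Ccl4 difference of -2.97 UMIs per cell split into -2.31 from shares and -0.669 from levels, and the Ccl3 difference of -0.544 into -0.478 and -0.0658. By UMIs the main holders overlapped with those of Ccl2: mixed neutrophil and macrophage droplets held 48.8% of the WT and 18.3% of the VISTA KO Ccl4 UMIs and made up 18.2% and 5.11% of the cells. Neutrophil markers summed over each library stood at 5152 and 1340 CPM over 12 markers. With the mixed and unnamed clusters left out, the ratio of Ccl4 was -0.12 and that of Ccl3 0.14, so the call on Ccl4 was lost.

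Within macrophage-like cells Ccl4 was at 547 and 423 CPM (-0.37) and Ccl3 at 121 and 117 CPM (-0.05, -0.16 to 0.07). In monocyte-like cells Ccl4 was at 447 and 532 CPM (0.25), but its ratio was 0.29, -0.17 and -0.14 in clusters 0, 6 and 7. Ccl4 in cluster 8 of the macrophage-like cells, at 532 and 349 CPM (-0.61), was the 1 ligand value called lower in the 5 clusters.

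In cluster 1 only Ccl8 was called, higher, where 6.28% of genes were called higher and 1.91% lower, and in the mixed neutrophil and macrophage droplets Ccl8 was again the only call, higher, against 4.4% and 1.84%. Cluster 2 (4.78% and 1.39%) and NK cell-like cells (5.42% and 1.45%) had 1 call each, Cx3cr1, higher. Apart from the mixed droplets, the NK cells held 26 and 33 Cx3cr1 UMIs, under the minimum of 100 for a call. Mature DC-like cells had Ccr2 as the 1 call among 8 genes measured, higher (5.26% and 1.82%). Cluster 5 had 2 calls, Ccl8 and Ccl3, both higher, at backgrounds of 10.2% and 7.59%, and cluster 11 had Ccl8 higher and Ccl3 and Ccl4 lower (3.11% and 4.24%). The calls in cluster 5 rest on only 190 WT cells. Ccl3 there was at 54.1 CPM (30.9 to 87.8) in WT and 92.0 (79.2 to 106) in VISTA KO, with overlapping intervals. Ccl8 there was at 40.6 (21.0 to 70.9) and 202 (183 to 223).

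By cluster, both Ccl8 and Cx3cr1 were called higher in the monocyte-like cluster 0 (3.91% of genes higher, 1.94% lower) and in the macrophage-like cluster 4 (3.82% and 1.2%). Cluster 6 had Ccl8 higher as its only call (3.37% and 1.3%), and cluster 7 had 0 calls (4.8% and 3.37%). Cluster 8 had Ccl8 higher and Ccl4 lower (3.69% and 1.76%). Ccl2, Ccl7, Ccl12 and Ccr1 were called in none of these 5 clusters.

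In cDC2-like cells (452 WT, 695 VISTA KO) the CCR2 ligands and Ccl4 were called higher in VISTA KO. Ccl2 stood at 207 CPM (190.1 to 225) and 405 (385 to 426), Ccl7 at 65.9 and 129, Ccl12 at 38.1 and 148, and Ccl4 at 348 and 702. These gave log2 ratios of 0.97, 0.96, 1.95 and 1.01. With Cx3cr1 at 0.79, 5 of the 8 genes that reached 100 UMIs were called higher and 0 lower, where 4.9% and 1.95% of 5448 genes were. Ccl8 had only 63 UMIs there and was not counted. The summed macrophage markers of these cells moved the same way, at 1040 and 1911 CPM over 14 markers with none at 0, and their part in the result was not tested. At resolution 2, mixed cDC2 and macrophage droplets numbered 180 WT and 346 VISTA KO, against 133 and 77 in the main clustering. The 1% of cDC2-like cells richest in a gene held 29.2% and 29.1% of the Ccl2 UMIs and 52.8% and 29.7% for Ccl7. For Ccl12 these were 22.1% and 43.0%, and for Ccl4 24.5% and 12.9%. Counting intervals thus understate how far a repeat could move, and no alternative was run for this class. The thinned shares of cDC2-like cells were 10.9% and 18.9% for Ccl2, 4.69% and 8.64% for Ccl7 and 4.02% and 8.79% for Ccl12. The NK cells apart from mixed droplets had 10.2% and 26.7%, 4.10% and 9.77%, and 4.51% and 10.3%. In VISTA KO the cDC2-like shares of these 3 genes were thus under that background, but their CPM was above the 251, 84.4 and 99.8 CPM of the same NK cells, so no order is read. NK cells make Ccl4 and give no background for it, and its cDC2-like share was 18.5% and 22.4%. Basophil or mast cell-like cells, too few to count, had ratios of the same sign for Ccl2, Ccl7 and Ccl12 (0.98, 1.14 and 1.32).

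Ccr2, the receptor for Ccl2, Ccl7 and Ccl12, was widespread among mononuclear cells. Monocyte-like cells stood at 863 CPM (849 to 878) in WT and 996 (979 to 1014) in VISTA KO, and macrophage-like cells at 524 (509 to 540.0) and 575 (562 to 587). Cluster 1, led by Ly6i, Cxcl9 and H2-Eb1, was at 908 and 867 CPM, cluster 2 at 807 and 921 and the unnamed cluster 5, of low UMI counts, at 1220.5 and 1350.5. Neutrophil-like cells had the lowest level, at 118 and 137 CPM. With cells thinned to 1000 UMIs, 51.5% of WT and 58.0% of VISTA KO monocyte-like cells held Ccr2, against 7.82% and 8.06% of neutrophil-like cells. NK cells apart from the mixed droplets lay between them, with 28.1% and 42.4%, and NK cells are known to carry some CCR2.

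Monocyte-like cells held the largest share of the Ccr2 UMIs in WT, 34.2%, followed by the mixed droplets with 30.1%. In VISTA KO, cluster 2 held 29.5%, monocyte-like cells 19.2% and cluster 1 14.9%, and the mixed droplets 9.96%. The whole libraries held Ccr2 at 664 and 808 CPM, a log2 ratio of 0.28 (0.27 to 0.30), and no alternative brought it past 1.5-fold. Cluster ratios were 0.35, 0.01 and 0.43 in the monocyte-like clusters 0, 6 and 7 and 0.07 and 0.31 in the macrophage-like clusters 4 and 8. Of the 0.264 more Ccr2 UMIs per VISTA KO cell, -0.0543 came with group shares and 0.319 with levels within groups. In CPM the parts were 46.6 and 97.4, so the sign of the share part depends on the scale.

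Ccr1, which binds CCL3 and CCL7, peaked in neutrophil-like cells, 386 in WT but only 76 in VISTA KO. It stood there at 1372 CPM (1273 to 1476) in WT and 1463 (1238 to 1716) in VISTA KO. The thinned shares of neutrophil-like cells with Ccr1 were 72.1% and 72.6%, against 0.820% and 5.14% in NK cells apart from the mixed droplets. Monocyte-like cells were at 387 and 376 CPM and macrophage-like cells at 315 and 342. No group with at least 100 cells in both libraries had a Ccr1 ratio past 1.5-fold. The value over all kept cells, 396 and 359 CPM (-0.14), went mostly with group shares, which gave -0.380 of the difference of -0.494 UMIs per cell.

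Among the groups and clusters measured, Cx3cr1, the fractalkine receptor, was highest in cluster 8 of the macrophage-like cells. It stood there at 264 CPM (245 to 284) in WT and 206 (194 to 219) in VISTA KO. Cluster 4 of the same class held 44.0 and 70.8 CPM. Their ratios had opposite signs, -0.36 (-0.49 to -0.22) and 0.68 (0.47 to 0.90), and the pooled macrophage-like value was 0.08. In monocyte-like cells Cx3cr1 stood at 47.9 CPM (44.6 to 51.4) in WT and 81.1 (76.2 to 86.2) in VISTA KO, a log2 ratio of 0.76 (0.62 to 0.89). It and Ccl8 were the 2 of the 9 genes called higher in monocyte-like cells, with 0 lower, where 5.11% and 1.66% of 8531 genes were called. Nonclassical monocytes were not set apart in these groups. Cells with 8 of 8 nonclassical monocyte markers formed a cluster at resolution 0.5 (147 WT, 55 VISTA KO) and at resolution 2 (190 and 107). Their Cx3cr1 level was not measured, and their part in the Cx3cr1 values and ratios of the groups was not tested.

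The Cx3cr1 call in monocyte-like cells rested on cluster 0. Its ratio there was 1.05 (25.5 and 53.0 CPM), against 0.57 in cluster 6 and 0.17 in cluster 7, and without cluster 0 the class ratio was 0.20. Thinned shares of monocyte-like cells with Cx3cr1 were 4.94% and 6.79%, above the 2.05% and 3.08% of NK cells apart from the mixed droplets and the 0 of 294 and 0 of 62 neutrophil-like cells. Cells weighted equally gave a ratio of 0.52, also under the size of a call. Macrophage marker RNA moved with it, at 2163 and 3345 CPM over 14 markers in cluster 0, with none at 0 in monocyte-like cells. Its part in the Cx3cr1 result was not tested.

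**Figure D4:**
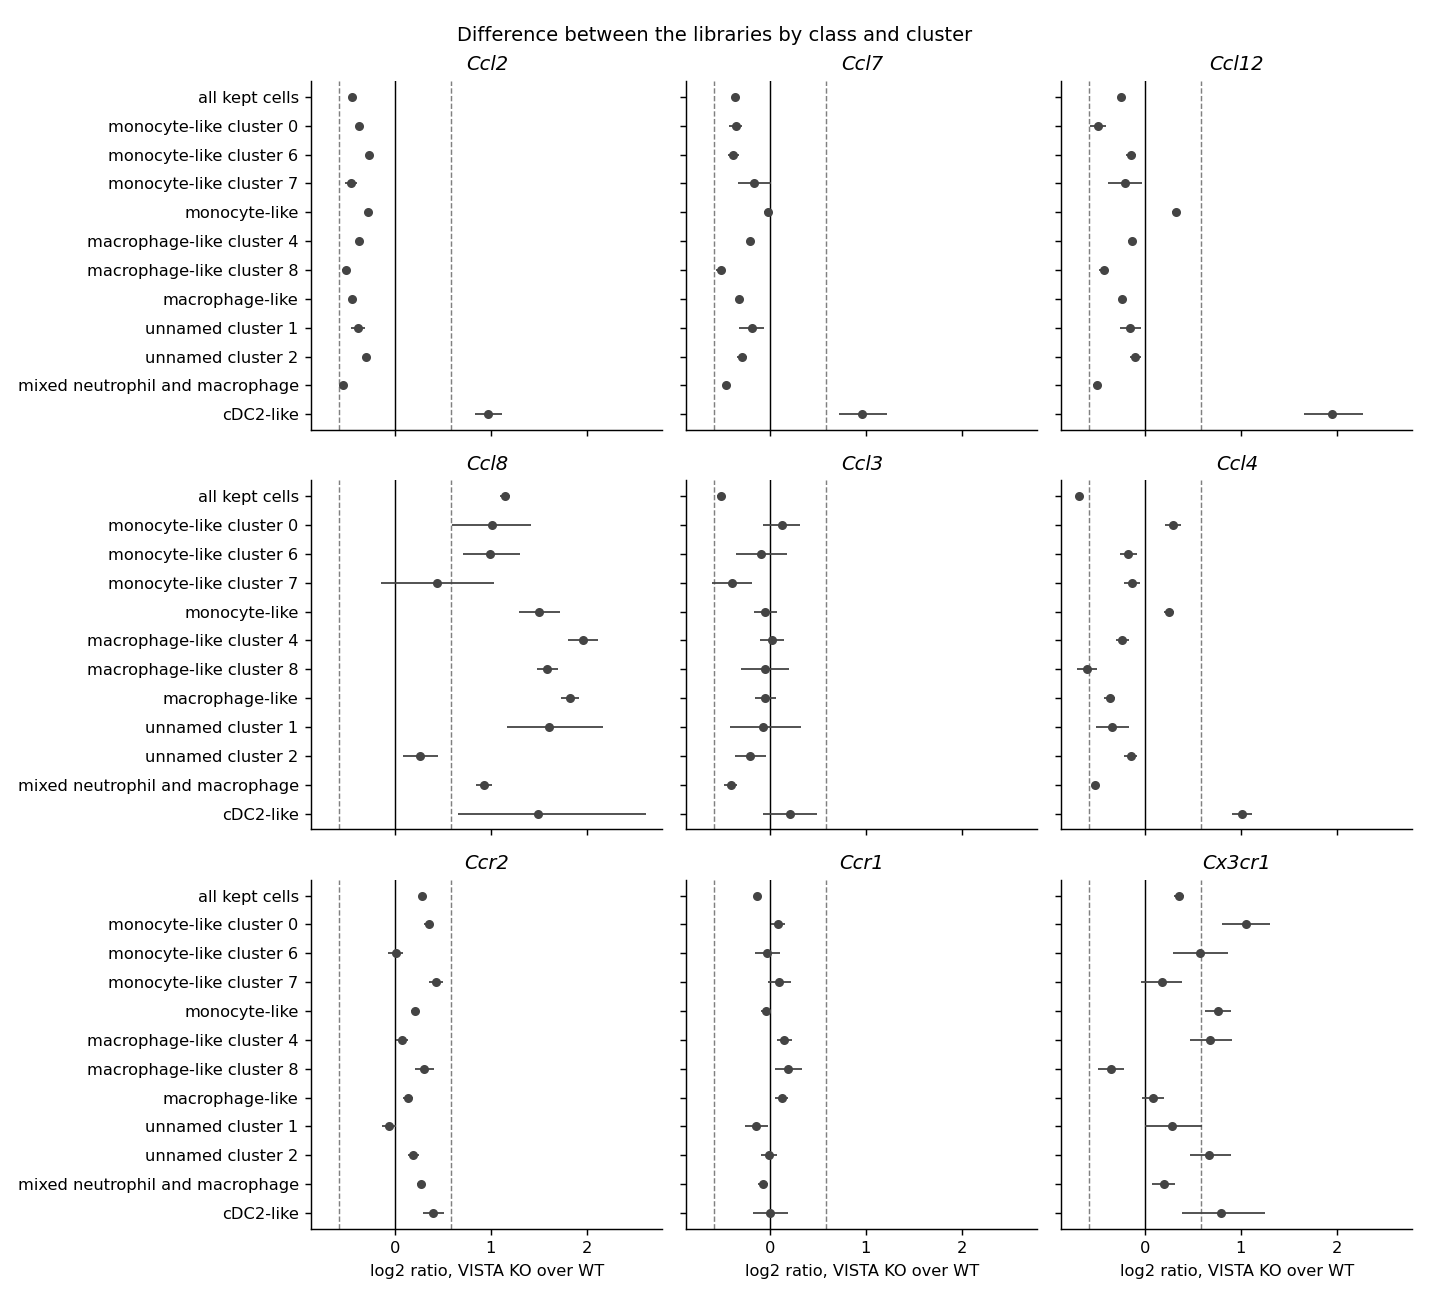
Log2 ratio of each gene, VISTA KO over WT, in all kept cells and in 11 classes and clusters. Points are ratios of summed UMIs per 1000000 with exact 95% counting intervals, the solid line marks 0 and the dashed lines 1.5-fold. Ccl8 lies to the right in macrophage-like cells (1.83), Ccl2 to the left in all 5 named clusters, and the pooled monocyte-like Ccl12 value (0.32) lies outside the range of its 3 clusters.

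The ligands were often detected in the same cells. In WT monocyte-like cells thinned to 1000 UMIs, 87.4% of cells with Ccl7 also held Ccl2, against 52.9% of those without, and 52.2% against 14.6% held Ccl12. The VISTA KO values were 81.6% against 49.8% and 50.4% against 17.6%. In macrophage-like cells, Ccl12 was found in 64.2% of WT cells with Ccl7 and 25.7% of those without, and in 62.6% and 32.6% for VISTA KO. Ccl3 and Ccl4 also went together, with Ccl4 in 43.4% of WT monocyte-like cells with Ccl3 and 14.3% of those without.

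In VISTA KO monocyte-like cells and macrophage-like cells of both libraries, Ccr2 was found at near-equal shares with and without Ccl2. Of VISTA KO monocyte-like cells, 57.1% of those with Ccl2 and 59.3% of those without held Ccr2, and the WT shares are not given here. In macrophage-like cells the same shares were 39.2% and 39.8% in WT and 39.8% and 40.2% in VISTA KO. Of VISTA KO monocyte-like cells with Cx3cr1, 48.3% held Ccl2, against 57.8% of those without, and in VISTA KO macrophage-like cells these shares were 58.8% and 72.2%. In macrophage-like cells of VISTA KO, Ccl12 was found in 65.1% of cells with Ccl8 and 47.9% of those without, and Ccl2 in 80.3% and 69.9%. These shares describe cells of 1 library each and carry no test.

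Surface Ly6C, read from the antibody tags and not used in clustering, set the receptors apart. Cells of a class were cut into 4 equal bins by tag count within each library, so the cut points differ between libraries. From the lowest to the highest bin of macrophage-like cells, Ccr2 stood at 244, 530.3, 627 and 647 CPM in WT and at 382, 577, 656 and 666 in VISTA KO. Cx3cr1 ran the other way, at 205, 128, 72.9 and 74.5 CPM in WT and 172, 120.4, 104 and 99.6 in VISTA KO. Both libraries thus showed macrophage-like cells with low Ly6C to hold the least Ccr2 and the most Cx3cr1. Median gene UMIs of the bins ranged from 4912 to 6245 in WT and from 4823 to 5565 in VISTA KO.

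The ligands differed by tag as well. In monocyte-like cells Ccl12 was at 328 CPM in the lowest and 1025 in the highest Ly6C bin of WT, and at 418 and 1312 in VISTA KO. It also followed CD11c, from 346 to 1083 CPM in WT and from 286 to 1500.4 in VISTA KO between the lowest and highest bin. In macrophage-like cells Ccl2 went down with CD11c, at 6027, 4825, 4712 and 3554 CPM in WT and 4340.2, 3582, 3222 and 2760.1 in VISTA KO. The VISTA KO value was below the WT value in each of these 4 bins. For Ccl8, the VISTA KO value was above the WT value in all 4 Ly6C bins of macrophage-like cells, with 279, 49.5, 129 and 124 CPM in WT and 634, 872, 387 and 207 in VISTA KO.

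**Figure D5:**
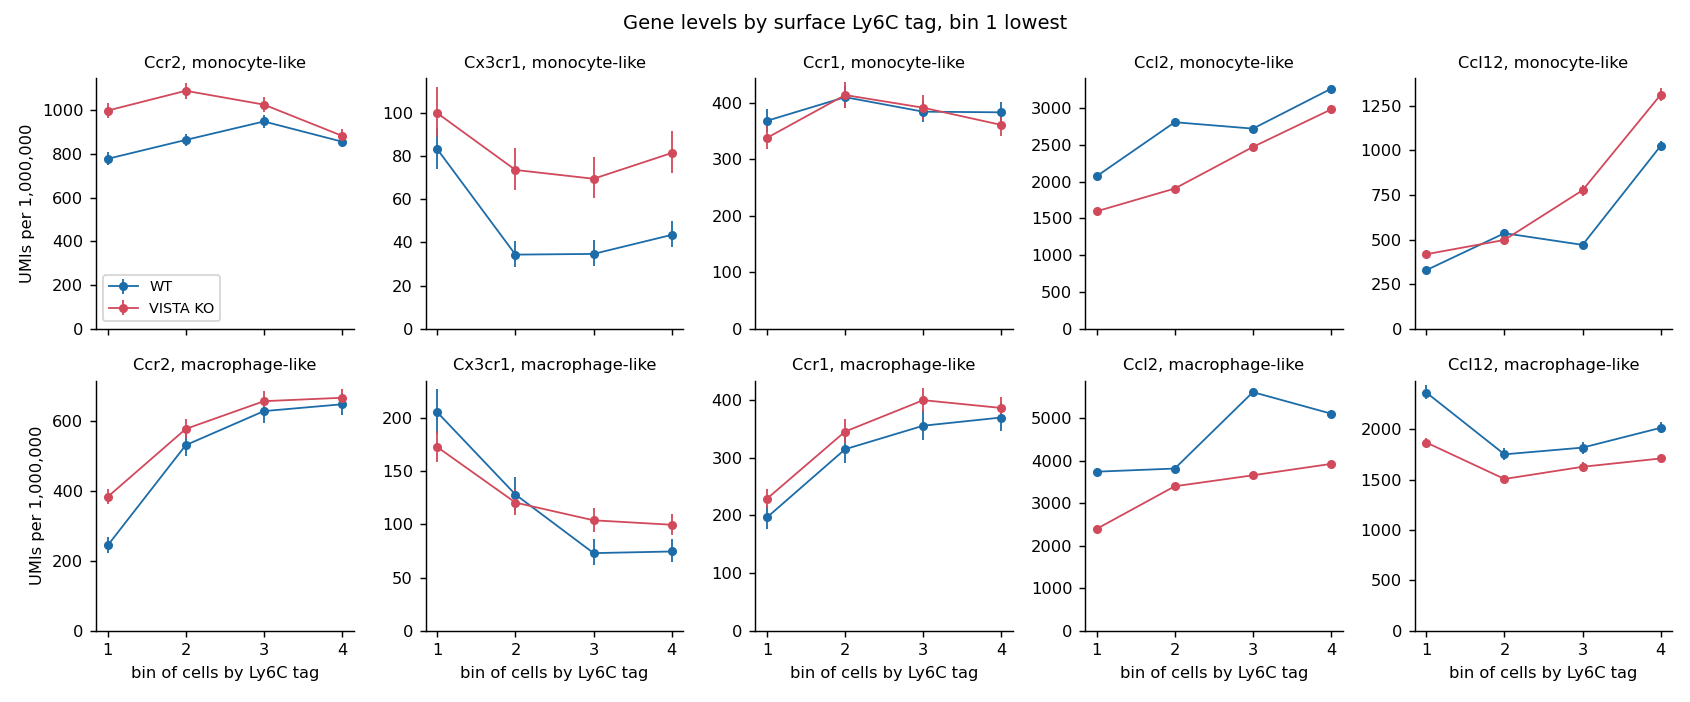
Levels of 5 genes (UMIs per 1000000, axes from 0) in bins of monocyte-like (top) and macrophage-like cells (bottom) by Ly6C tag, with exact Poisson 95% intervals, for WT (blue) and VISTA KO (red). In macrophage-like cells Ccr2 climbs from 244 to 647 and Cx3cr1 drops from 205 to 74.5 in WT between the lowest and the highest bin.

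Other genes of the pathway were read from 4 lists. Their counts stand beside backgrounds of 4.43% of genes called higher and 4.19% lower over all kept cells, 5.11% and 1.66% in monocyte-like and 3.37% and 1.29% in macrophage-like cells. Of other chemokine ligands, 4 of 6 reached 100 UMIs over all kept cells, and 2 were called higher and 0 lower. Ccl5, a ligand of CCR1, had 970.2 and 1973 CPM in the WT and VISTA KO libraries (1.02 as a log2 ratio), and Ccl24, a ligand of CCR3, at 51.2 and 80.6 (0.65). Ccl5 was also called in monocyte-like cells, at 390 and 1458 CPM (1.90), and in macrophage-like cells, at 340.3 and 805 (1.24). Cx3cl1, the ligand of CX3CR1, had only 33 UMIs in each library, in a sort that would leave out most stromal cells.

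Of the other and decoy receptors, 3 of 6 were measured over all kept cells, with 1 called lower: Ccr3, at 1.57 and 0.598 CPM from 97 and 48 UMIs. None of the 17 signalling genes was called over all kept cells or in macrophage-like cells, and 3 were called higher in monocyte-like cells. These were Plcb2, a phospholipase, at 9.11 and 14.0 CPM (0.61), Arrb2, an arrestin, at 67.9 and 104 (0.61), and Rgs1, an inhibitor of G protein signalling, at 101 and 192 (0.92). Of the sheddases and the CSF1 axis, Csf1, a growth factor of macrophages, was the 1 of 4 called lower over all kept cells, at 64.3 and 25.8 CPM (-1.32), and its receptor gene Csf1r stood at 251 and 362 (0.52). In monocyte-like and macrophage-like cells 0 of these 4 were called.

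The genes most like each of the 9 were named by Pearson's r of log2(CPM + 10) over 20 sums, 10 groups in 2 libraries, which share libraries and depth, so r is a description. Ccl2, Ccl7 and Ccl12 had each other as nearest genes, at 0.95 to 0.96, and then Nt5dc2 (0.90), Maf (0.94) and Ctsl (0.93). Ccl8 was nearest to Itsn1 (0.91), Timp2 (0.91) and Itga9 (0.90) and stood at 0.69 with Ccl2. Ccl3 and Ccl4 had each other at 0.95 and St3gal6 next (0.90 and 0.92). Ccr2 was nearest to Myo1f (0.96), Heatr1 (0.93) and Sh3bp2 (0.93), and Ccr1 to Lamp2, Cd300lf and Slc15a3 (0.97 each). For Cx3cr1 they were Apobec1 (0.95), Daglb (0.95) and the macrophage marker Adgre1 (0.94).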

How the data were processed

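Single cells were measured by 10x Genomics 3′ sequencing with feature barcoding, per the labels' protocols. The deposited matrices hold counts, whole UMIs per gene and barcode, not normalized. Cell Ranger 5.0.0 wrote them, per the file headers, and the submitters' processing notes name mm10 and Seurat 4.0. The sources used here do not say what Seurat was used for or how barcodes were called cells.

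Cells with at least 200 genes, at least 500 UMIs and at most 10% mitochondrial UMIs were kept (99.5% and 99.2%). Both libraries were clustered together (scanpy 1.11.5, leidenalg 0.10.2, 30 components, resolution 1) without the 9 genes, Vsir, Xist and mitochondrial, ribosomal, Y-linked and cell cycle genes. Clusters were named from 17 marker lists: at least 3 markers at least 1.5-fold above other cells and in at least 20% of the cluster, and no other list with more genes among the 10 leading ones. A cluster whose median UMIs were under the library's median divided by 3 in both libraries, with no marker of its list among those 10, stayed unnamed too. Clusters 5 (190 WT and 1811 VISTA KO cells) and 11 (583 and 439) had enough markers but failed these further conditions. A cluster was "mixed" where at least 3 macrophage markers each reached 60% of a cluster of another type, but monocyte and nonclassical monocyte clusters were exempt. The monocyte-like cluster 6 had 3 such markers and was not called mixed for that reason. No doublet caller was used, and cells above 20000 UMIs (257 and 225) were left out in an alternative. From the deposited counts, UMIs were summed per group and library and given per 1000000 (CPM). Log2 ratios have VISTA KO as the numerator, 1 UMI as pseudocount and the exact conditional interval, and shares have Clopper-Pearson intervals (scipy 1.17.1). A difference was called at 1.5-fold among genes with at least 100 UMIs, in groups of at least 100 cells per library. The ratios were tested on simulated data with known folds. The antibody tag counts came in the same matrices.

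The 9 genes, marker lists, pathway lists and alternatives were chosen with earlier results of these data known. Named beside the 9 are Vsir, pathway genes called in all kept, monocyte-like or macrophage-like cells, and the 3 genes of highest r per gene among those with at least 500 UMIs, leaving out mitochondrial, ribosomal, Gm and Rik genes. Csf1r, Cx3cl1 and the leading genes of clusters were named outside this rule, after their values were seen. Promoter sequences were read from the RefSeq table of GRCm38.p6, which held 6 of the 9 genes. Some results for genes of the pathway and marker lists are not reported here.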

Additional observations from a re-analysis of the deposited data

Results flagged for a closer look

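Differences between the libraries had opposite signs in different classes for 4 ligands, and since each group held 1 library, this difference between classes was not tested. Ccl2 had a log2 ratio of 0.969 in cDC2-like cells, against -0.284 in monocyte-like and -0.453 in macrophage-like cells. Ccl7 stood at 0.961 in cDC2-like and -0.321 in macrophage-like cells. Ccl12 was at 1.95 in cDC2-like and 0.323 in monocyte-like cells, against -0.237 in macrophage-like cells. Ccl4 was at 1.01 in cDC2-like and 0.250 in monocyte-like cells, against -0.370 in macrophage-like cells. The positive monocyte-like values rest on how the 3 clusters of that class are pooled: Ccl12 was negative in all 3 and -0.28 with equal weights, and Ccl4 was positive in cluster 0 only, with a class ratio of -0.13 without it. In cDC2-like cells of VISTA KO, the thinned shares with Ccl2, Ccl7 and Ccl12 were under those of NK cells apart from mixed droplets, while their CPM was above.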

How the results depend on the processing

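The ratio of Ccl8 was past 1.5-fold in every alternative tried over all kept, monocyte-like and macrophage-like cells (8, 12 and 12 alternatives). Over all kept cells the count called lower, 1, became 2 with scaling by the median gene ratio, with cells weighted equally or without the 1% of cells richest in each gene, and 0 with mixed and unnamed clusters left out. Those left out gave ratios of 0.06 for Ccl7, 0.21 for Ccl12 and 0.14 for Ccl3. In monocyte-like cells the count called higher, 2, became 1 with cells weighted equally or without cluster 0. In macrophage-like cells the count called lower, 0, became 4 with the 9 genes in the clustering, 4 with each library clustered alone and 2 at resolution 2, and the count called higher, 1, became 2 without cluster 8. At a size of 25%, 2 were higher and 4 lower over all kept cells and 2 lower in macrophage-like cells, and at 2-fold 0 were lower over all kept cells and 1 higher in monocyte-like cells. The cause of these moves was not tested. Over all kept cells 509 genes were called higher and 482 lower, against 986 and 860 with at least 20 UMIs and 380 and 551 with scaling by the median gene ratio. The counts were 436 and 142 in monocyte-like and 291 and 111 in macrophage-like cells, against 1008 and 346 and 787 and 336 with at least 20 UMIs. A size of 25% gave 1900 and 930 genes over all kept cells, 1517 and 676 in monocyte-like and 1266 and 388 in macrophage-like cells, and a size of 2-fold gave 136 and 210, 107 and 47, and 62 and 38. No paired analysis was possible because there was 1 library in either group, and leaving out a replicate was not possible for the same reason. At these depths values of a few UMIs per group, as for Ccl8 in cDC2-like and neutrophil-like cells, give no usable ratio. Leaving the mixed droplets of resolution 2 out of the NK cell-like cells, an alternative chosen after seeing the data, changed the thinned share with Ccl2 from 21.0% to 10.2% in WT and from 32.1% to 26.7% in VISTA KO.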
